A study of Mus musculus with 6 samples.

Results

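The genes described here encode 10 proteins of the focal adhesion plaque, the protein assembly that couples integrins at the cell base to actin filaments: Tln1, Vcl, Zyx, Pxn, Ilk, Parva, Lims1, Ptk2, Src and Bcar1. They were picked by name from a list whose rule holds no measured value, although earlier results of these data were known when it was drawn up, and all 10 were found as single-gene rows among the 37757 rows of the authors' deposited table. All 10 were among the 14748 rows that the authors tested. Messenger RNA was sequenced from kidney epithelial cells of 8-week-old C57/Bl6J mice of genotype Bim-/- Bmf-/-, either kept attached or held in suspension culture for 4 h. Both groups carry this genotype, which is labelled as lacking 2 proteins that promote cell death, so every value below belongs to cells of that background and no wild-type cells were compared. The suspended samples have titles that name anoikis, a death of cells cut off from their matrix, and the comparison asks which transcripts differ when such cells lose attachment. There were 3 libraries per condition and 6 in all.

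The table holds 1 FPKM per gene and condition (fragments scaled to the length of the transcript and the size of the library), pooled over libraries by the authors, together with their own log2 fold change, p and q. No spread between libraries can be given, it cannot be seen whether the libraries of the groups overlap, and the depth is unknown. The labels call the libraries independent without naming cultures or animals, so the authors' p may measure technical spread only. A gene is called here when the authors' q is below 0.05. The smallest q per the authors' deposited table is 0.000185, and it applies to each called gene below unless another is given. Attached is the column lettered A, and suspended was read from the letter S.

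Epithelial and tubule markers were high in both conditions, with Epcam at 261 and 253 FPKM and the kidney cadherin Cdh16 at 441 and 346 FPKM (q = 0.00268) per the authors' deposited table. Of the 9 epithelial markers 3 were called higher and 5 lower. Called rows were 51% of all tested rows and 54.6% of those of at least 10 FPKM in both conditions. Some markers moved far: Pax2 fell from 150 to 30.9 FPKM, Pax8 fell from 104 to 37.1 FPKM and the E-cadherin gene Cdh1 rose from 95.4 to 201 FPKM, per the authors' deposited table. The 5 endothelial markers summed to 0.357 FPKM attached and 0.313 FPKM suspended, the 6 fibroblast markers to 0.225 and 1.99 FPKM, and the 4 podocyte markers to 1.60 and 7.95 FPKM, of which Podxl alone was above 1 FPKM. Summed FPKM of mitochondrial rows went from 31198 attached to 68368 suspended. Rescaling FPKM to the same sum without mitochondrial and microRNA rows moves every log2 value by the same amount, and all 10 members kept their sign. The authors' q was not recomputed. Short of a change of sign, the calls of 3 higher and 5 lower members given below could not change. In these pooled values fewer cells of a type and less RNA per cell cannot be told apart. The median log2 fold change per the authors' deposited table was -0.11 over rows that reached 1 FPKM in each condition, so log2 values relative to that median are given beside the members where they matter.

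Integrins have no enzyme activity of their own. Talin binds their cytoplasmic tails and activates them, vinculin reinforces the link from talin to actin, and the complex of integrin-linked kinase, PINCH and parvin forms a further link to actin. Focal adhesion kinase and SRC bind each other when integrins engage matrix, and phosphorylate paxillin and p130Cas, the scaffolds through which adhesion signals pass to small GTPases. In epithelial cells loss of this signalling on detachment is a known trigger of anoikis. Much of this regulation is by phosphorylation and protein assembly, which transcript levels do not measure.

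Vinculin and p130Cas stood at the 2 ends of the range, and the 250 bases upstream of their RefSeq transcript starts (build GRCm38.p6) are shown for that reason. Capitals mark matches to the motifs searched, on both strands: the CArG box bound by serum response factor, the TEAD motif GGAATG (or CATTCC) and the AP-1 motif TGACTCA (or TGAGTCA). The Vcl window is on the plus strand at chr14:20929148-20929397, and the Bcar1 window, that of the outermost of its 2 listed starts, is on the minus strand at chr8:111743850-111744099.
Vcl: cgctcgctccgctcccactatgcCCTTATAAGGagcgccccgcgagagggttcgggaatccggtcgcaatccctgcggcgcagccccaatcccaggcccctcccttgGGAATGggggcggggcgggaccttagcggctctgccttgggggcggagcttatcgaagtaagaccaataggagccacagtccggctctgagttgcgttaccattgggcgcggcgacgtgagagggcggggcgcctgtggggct
Bcar1: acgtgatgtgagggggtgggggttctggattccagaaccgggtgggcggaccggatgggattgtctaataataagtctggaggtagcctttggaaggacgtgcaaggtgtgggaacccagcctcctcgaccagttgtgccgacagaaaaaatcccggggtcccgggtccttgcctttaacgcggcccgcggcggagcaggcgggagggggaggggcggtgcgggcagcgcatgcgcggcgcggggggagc

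The Vcl window holds CCTTATAAGG, a CArG box, from 227 to 218 bases before the start, and a TEAD motif from 143 to 138 bases before it. A CArG box was found in 1.47% of the 32851 windows of this length in the RefSeq table, the TEAD motif in 12.6% and the AP-1 motif in 4.46%. Windows were listed for 7 of the 10 genes, 11 windows in all. Of these 11, the Vcl window alone held a CArG box or a TEAD motif, and the Zyx window alone held the AP-1 motif, from 121 to 115 bases before its start. None of the 3 motifs overlapped another, and a match of letters is a description, not evidence of binding.

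Of the 10 genes, 3 rose in suspension (Vcl, Pxn and Lims1), 5 fell (Bcar1, Ptk2, Ilk, Parva and Tln1) and 2 were not called (Src and Zyx) per the authors' deposited table. Over all tested rows 51% were called, 24.7% as higher and 26.3% as lower, and among tested rows of at least 10 FPKM in both conditions, as all 10 genes are, 54.6% were called. Most changes were modest: only Vcl upward and Bcar1 downward reached 2-fold, against 19.5% of all tested rows that were called and changed at least 2-fold. The median log2 fold change of the 10 was -0.38, with a range from -1.28 to 1.06, per the authors' deposited table. Centring the log2 values on the median given above shifts all of them by the same amount. The 3 higher and 5 lower genes kept their direction, and the calls were not recomputed.

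**Figure D1:**
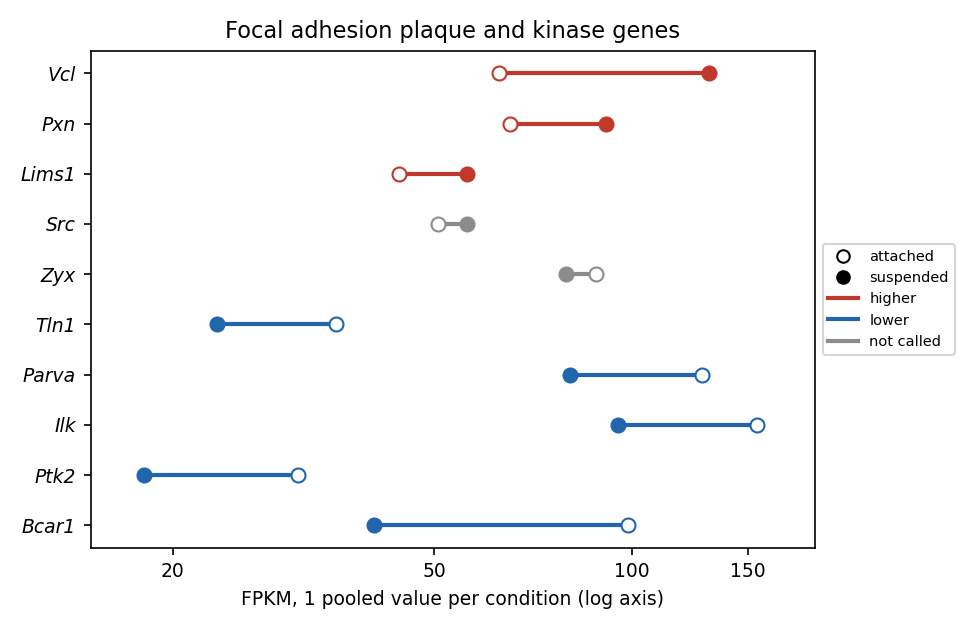
FPKM of the 10 genes on a log axis, 1 pooled value per condition (open circles attached, filled circles suspended), with lines coloured by the authors' call. Vcl moved from 62.8 to 131 FPKM and Bcar1 from 98.5 to 40.4 FPKM, while the circles of Src and Zyx lie close together.

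Among the scaffolds that tie integrins to actin, the 2 best-known partners moved apart. Tln1 encodes talin-1, which binds integrin tails and exposes sites for vinculin when stretched, and its FPKM was 35.5 attached and 23.4 suspended. That is a fall of 0.60 on the log2 scale per the authors' deposited table (chromosome 4, positions 43531519 to 43587487, mm10). Vcl, which encodes vinculin, stood at 62.8 FPKM attached and 131 FPKM suspended, a 2.08-fold rise per the authors' deposited table (chromosome 14, positions 20929433 to 21052508). The ratio of Vcl to Tln1, both per length, was 1.77 attached and 5.60 suspended. Vcl rose from the sixth place among the 10 to the first in FPKM. The order of levels cannot be checked against a spread between libraries.

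The 3′ end of Vcl overlaps Ap3m1, an adaptor complex subunit read from the opposite strand, over 2090 exonic bases or 25.5% of all annotated Vcl exon bases, of which 144 are coding for Vcl. Ap3m1 was also called higher, from 43.0 to 83.2 FPKM, a 1.94-fold rise per the authors' deposited table. Whether strand was counted is not given in the sources used here, and reads from the shared bases cannot then be told apart. The share of the Vcl rise that belongs to either gene was not tested.

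Paxillin, encoded by Pxn, is the adaptor on which kinases, vinculin and parvin dock. Its transcript stood at 65.2 FPKM attached and 91.3 FPKM suspended, 1.40-fold higher per the authors' deposited table (chromosome 5, positions 115506676 to 115555987). No annotated exon of another gene shares bases with those of Pxn. Zyxin, encoded by Zyx, is a LIM domain protein of mature, tension-bearing adhesions that recruits the actin regulators of the ENA/VASP family. Zyx stood at 88.0 FPKM attached and 79.5 FPKM suspended (q = 0.294) per the authors' deposited table (chromosome 6, positions 42349828 to 42373268). The authors' p corresponds to an approximate 95% interval for the suspended over attached ratio of Zyx from 0.773 to 1.05, so these data do not show that Zyx stayed the same. Such intervals treat the log2 fold change as normal and were derived only where p lay above the floor of the table. The deposited test scores, -0.74 for Zyx, 0.56 for Src and 1.83 for Lims1, are smaller in size than the normal quantiles of p used. If those scores are the log2 fold change over its error, the intervals are too narrow, and that of Lims1 would take in no difference. Tln1, called at the floor p, has a score of -1.84, so on that reading its fall would also take in no difference. Some called genes described below have scores of like size, such as Crk (-1.77), Git1 (1.77) and Ptprf (-1.86).

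The complex of integrin-linked kinase, PINCH and parvin is known to assemble from its 3 parts before it reaches adhesions, and its transcripts did not move as one. Ilk, which encodes the pseudokinase at its centre, stood at 155 FPKM attached and 95.1 FPKM suspended, a fall of 0.71 on the log2 scale per the authors' deposited table (chromosome 7, positions 105732207 to 105744361). Parva, which encodes the actin-binding alpha-parvin, stood at 128 FPKM attached and 80.4 FPKM suspended, a fall of 0.67 on the log2 scale (q = 0.00551) per the authors' deposited table (chromosome 7, positions 112427505 to 112591692). Both kept nearly the same proportion to each other, with a ratio of Ilk to Parva of 1.21 attached and 1.18 suspended.

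Lims1 encodes PINCH-1, the LIM-only adaptor that binds the ankyrin repeats of integrin-linked kinase. Its transcript moved the other way, from 44.2 to 56.0 FPKM, 1.27-fold higher (q = 0.00295, approximate 95% interval of the ratio 1.10 to 1.46) per the authors' deposited table (chromosome 10, positions 58323466 to 58424691). The ratio of Ilk to Lims1 was therefore 3.51 attached and 1.70 suspended, and that of Parva to Lims1 was 2.89 and 1.43. Differences between the changes of these genes were not tested, since the table holds no values per library. Exons of Ilk share 2106 bases, 76.7% of all annotated Ilk exon bases, with Taf10 on the opposite strand, a transcription factor subunit at 86.8 and 74.0 FPKM that was not called (q = 0.525) per the authors' deposited table. A further 355 exonic bases are shared with Rrp8, which fell from 14.8 to 8.81 FPKM (q = 0.0451) per the authors' deposited table, and the part of either neighbour in the Ilk value was not tested.

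The kinases differed. Ptk2 encodes focal adhesion kinase, the tyrosine kinase that autophosphorylates on integrin engagement and then binds SRC. It had the lowest level of the 10 in both conditions, 31.1 FPKM attached and 18.1 FPKM suspended, a fall of 0.78 on the log2 scale per the authors' deposited table (chromosome 15, positions 73205105 to 73423191). Src, the founding member of its kinase family, stood at 50.6 FPKM attached and 56.1 FPKM suspended (q = 0.318) per the authors' deposited table (chromosome 2, positions 157418444 to 157471862). The approximate 95% interval of the Src ratio ran from 0.941 to 1.30.

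Bcar1 encodes p130Cas, the substrate of both kinases, whose phosphorylated domain recruits CRK and through it the activators of RAC and RAP. Bcar1 fell most of the 10, from 98.5 to 40.4 FPKM, a fall of 1.28 on the log2 scale per the authors' deposited table (chromosome 8, positions 111710485 to 111743849). Its fall was 1.18 relative to the median of all expressed rows, that is a centred log2 value of -1.18. No annotated gene overlaps Bcar1 or Src, and the genes that overlap Ptk2, Parva and Lims1 share no exonic bases with them. Exons of Tln1 share 360 bases (3.67%) with Creb3, and those of Zyx share 236 (4.38%) with Epha1. Creb3 and Epha1 lie on the opposite strand and were not called (q = 0.791 and 0.696) per the authors' deposited table. The deposited positions of Tln1, Zyx and Vcl also run past 1 annotated end, and those of Ilk past both. For Vcl the deposited end is 21052508 and the annotated end 21033676. Ilk was deposited at 105732207 to 105744361 and is annotated at 105736592 to 105742925. Bcar1 runs past slightly, to 111743849 against 111743809. Crk, the adaptor that binds p130Cas, went from 106 to 83.9 FPKM (q = 0.00476) per the authors' deposited table. The ratio of Bcar1 to Crk was 0.933 attached and 0.482 suspended.

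Most of these proteins have close relatives that can take part of their role, and these paralogs are set beside the members here. For each family the FPKM of the member was set against the summed FPKM of the member and its listed paralogs, as a description with no test. Ptk2 made up 60.1% of the sum of Ptk2 and Ptk2b attached and 31.1% suspended. Ptk2b encodes PYK2, a calcium-responsive relative of focal adhesion kinase, and it rose from 20.6 to 40.0 FPKM, 1.94-fold, per the authors' deposited table. The summed FPKM of both kinases was 51.7 attached and 58.1 suspended, so the order of the 2 genes was exchanged while their sum differed by 12.4%.

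Within the SRC family the shares of Fyn and Lyn were larger in suspended cells. In the wider group of FAK, SRC and ABL kinases with CSK, 3 of 7 tested genes rose, 2 fell and 2 were not called per the authors' deposited table. Fyn rose from 7.44 to 19.6 FPKM and Lyn from 2.84 to 9.14 FPKM, while Yes1 was at 20.3 and 21.6 FPKM (q = 0.804), per the authors' deposited table. Src itself made up 62.4% of the family sum attached and 52.7% suspended, Yes1 25.0% and 20.2%, Fyn 9.16% and 18.4%, and Lyn 3.50% and 8.58%. Csk, the kinase that places the inhibitory phosphate on SRC family members, fell from 38.7 to 26.0 FPKM per the authors' deposited table, and the ratio of Src to Csk was 1.31 attached and 2.15 suspended. Fyn, Lyn and Ptk2b are also abundant in blood cells. Leukocyte markers were planned together with the other cell type markers. Of 7 such markers, Ptprc rose from 1.42 to 12.4 FPKM and Cd68 from 23.4 to 34.9 FPKM per the authors' deposited table, and the list summed to 25.1 FPKM attached and 47.6 FPKM suspended. Emr1, Itgam, Lyz2 and Cd3e were under 1 FPKM in both conditions, and Emr1 was listed at 0 attached. Whether leukocyte content has a part in the values of Fyn, Lyn and Ptk2b was not tested.

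Talins fell together. Tln2, which encodes the second talin, went from 14.7 to 3.31 FPKM, a fall of 2.15 on the log2 scale per the authors' deposited table, and Tln1 made up 70.7% of the talin sum attached and 87.6% suspended. The talin sum was 50.2 FPKM attached and 26.7 FPKM suspended. Lims2, which encodes PINCH-2, went from 0.539 to 5.13 FPKM, 9.52-fold higher per the authors' deposited table, and Lims1 made up 98.8% of the PINCH sum attached and 91.6% suspended. Paralogs of paxillin, p130Cas and alpha-parvin were at low levels throughout. The paxillin paralog Lpxn was not called, at 0.977 and 1.16 FPKM (q = 0.462) per the authors' deposited table. Pxn made up 97.7% of its family attached and 98.3% suspended, Bcar1 98.3% and 94.96%, and Parva 99.3% and 98.9%. The Bcar1 paralog Nedd9 was at 1.71 and 1.78 FPKM (q = 0.799) per the authors' deposited table, so the p130Cas family sum went from 100.2 to 42.6 FPKM almost entirely through Bcar1. Zyx made up 59.9% of the sum of Zyx, Lpp and Trip6 attached and 62.5% suspended. Ajuba, Limd1, Wtip and Fblim1, counted with the zyxin family below, are not in this sum. Trip6 fell from 39.1 to 27.4 FPKM and Lpp was not called, at 19.9 and 20.3 FPKM (q = 0.858), per the authors' deposited table.

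**Figure D2:**
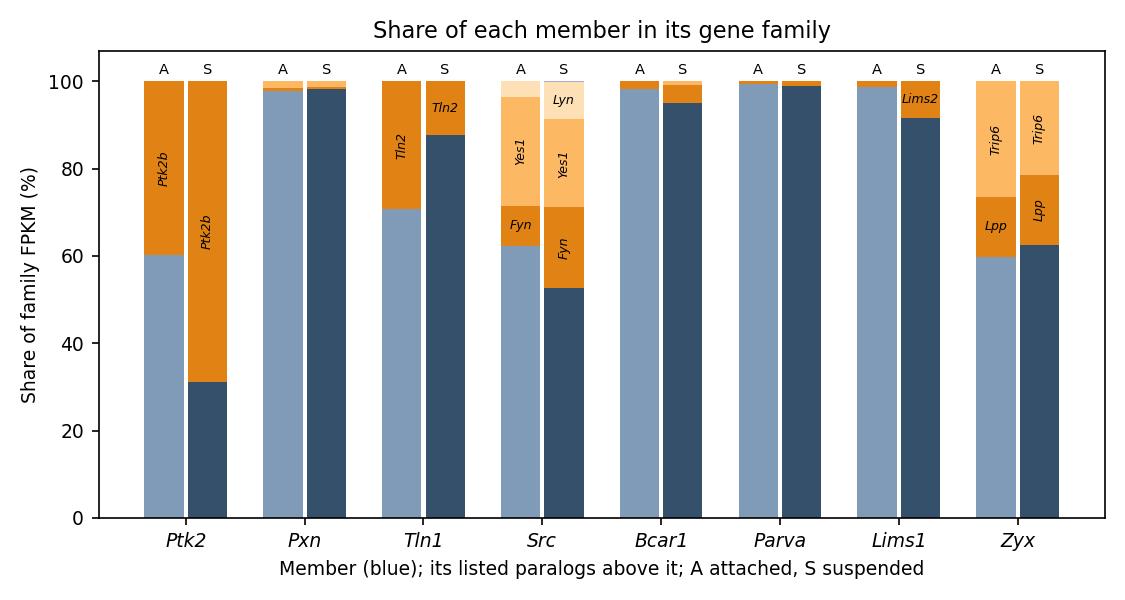
Share of each member (blue) in the summed FPKM of itself and its listed paralogs, in percent, 1 pooled value each. The paralogs are stacked above it, for attached (A) and suspended (S) cells. The share of Ptk2 went from 60.1% to 31.1% and that of Tln1 from 70.7% to 87.6%, while Pxn and Parva stayed above 97%.

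A list of 68 other plaque genes was described by role. Of these, 67 were in the table as single-gene rows, 62 were tested, and 12 rose, 26 fell and 24 were not called per the authors' deposited table. The 38 called genes are 61.3% of the tested list, beside the 51% of all tested rows given above. The list's median log2 fold change was -0.18 per the authors' deposited table, against -0.04 over all tested rows above 0 in both conditions and -0.15 over those of at least 10 FPKM in both. No claim that the list stands apart is made from these counts.

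Actin-binding plaque proteins, the largest role group, held 9 of the 26 falls per the authors' deposited table. Of its 15 tested genes 9 were lower, 2 higher and 4 not called. The phosphatases (3 of 5 lower) and the talins and kindlins (2 of 3) fell at a like or higher rate. Over all tested rows 26.3% were called lower, and 2288 of the 6583 tested rows of at least 10 FPKM in both conditions. Vasp, an actin elongation factor recruited by zyxin, fell from 135 to 60.9 FPKM per the authors' deposited table. Tns1, which encodes tensin-1 of fibrillar adhesions, fell from 36.7 to 16.6 FPKM, and Sorbs2, a vinculin-binding adaptor, from 35.8 to 18.3 FPKM (q = 0.000518), per the authors' deposited table. Enah, a relative of Vasp, was not called, at 47.4 and 41.4 FPKM (q = 0.122) per the authors' deposited table. The 2 that rose, named after their values were seen, were Tns2 (4.12 to 7.93 FPKM) and Kank1 (12.5 to 17.5 FPKM) per the authors' deposited table.

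Of the integrin activators, Fermt2, which encodes kindlin-2, fell from 35.7 to 18.8 FPKM beside the talins, whereas Fermt1, which encodes the epithelial kindlin-1, was not called, at 32.6 and 29.0 FPKM (q = 0.25), per the authors' deposited table. Among partners of integrin-linked kinase, Rsu1, which binds PINCH-1, fell from 78.3 to 53.9 FPKM per the authors' deposited table. Parvb was not called, at 0.878 and 0.845 FPKM (q = 0.895) per the authors' deposited table. In the zyxin family 3 of 6 fell and 3 were not called, and the largest fall was that of Ajuba, which shuttles between adhesions and nucleus, from 108 to 26.4 FPKM per the authors' deposited table. Fblim1, which encodes migfilin, fell from 20.7 to 13.5 FPKM, and Limd1 was at 28.7 and 33.7 FPKM (q = 0.0587), per the authors' deposited table.

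**Figure D3:**
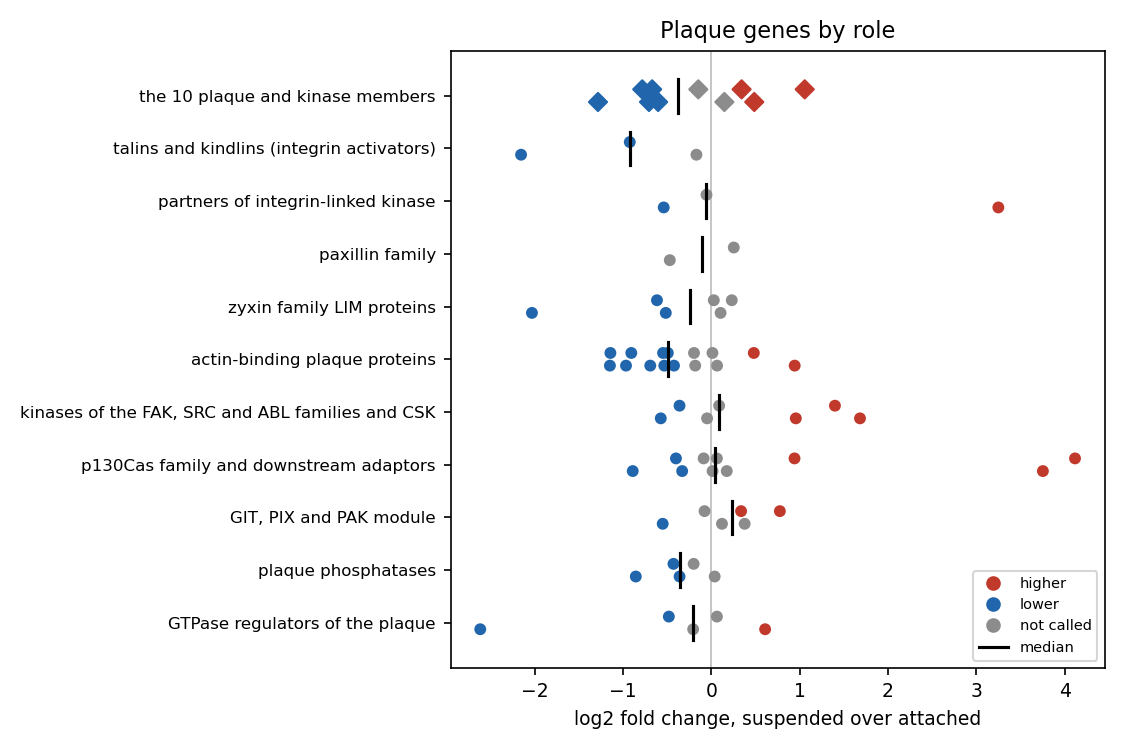
Log2 fold change (suspended over attached) of the tested genes of each role group, coloured by the authors' call, with a black bar at each median; diamonds are the 10 members. Actin-binding plaque proteins lie mostly to the left of 0, with 9 of 15 lower, and the kinase group holds Fyn, Lyn and Ptk2b to the right.

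Adaptors and regulators downstream of the plaque moved both ways. In the p130Cas and adaptor group 3 of 10 rose and 3 fell per the authors' deposited table. Grb7, an adaptor that binds focal adhesion kinase, rose from 49.4 to 94.9 FPKM, and Dock1, the RAC activator downstream of p130Cas and CRK, fell from 27.0 to 14.6 FPKM, per the authors' deposited table. Shc1 fell from 76.9 to 58.3 FPKM (q = 0.000676), and Grb2 was not called, at 46.3 and 52.2 FPKM (q = 0.198), per the authors' deposited table. The other 2 that rose, Efs (0.0208 to 0.362 FPKM, q = 0.0168) and Elmo1 (0.0583 to 0.787 FPKM), named after their values were seen, stayed under 1 FPKM per the authors' deposited table. In the GIT, PIX and PAK module, which binds paxillin, Pak1 rose from 7.49 to 12.8 FPKM and Git1 from 33.4 to 42.2 FPKM (q = 0.00361), per the authors' deposited table. Arhgef6 fell from 3.28 to 2.24 FPKM (q = 0.0249), and Pak2 was not called, at 57.7 and 62.7 FPKM (q = 0.344), per the authors' deposited table.

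Of the 5 tested plaque phosphatases 3 fell and 2 were not called per the authors' deposited table. Ptpn11, which encodes SHP2, went from 60.2 to 33.3 FPKM, Ptpn1 from 24.2 to 17.9 FPKM (q = 0.000676) and Ptprf from 31.3 to 24.4 FPKM (q = 0.00268), per the authors' deposited table. Ptpn12, a phosphatase that acts on p130Cas, was not called, at 32.9 and 28.7 FPKM (q = 0.307), per the authors' deposited table. Dlc1, a GTPase-activating protein bound by tensins and talin, had the largest fall of the 62 tested list genes, from 16.0 to 2.60 FPKM or by 2.62 on the log2 scale, per the authors' deposited table. Arhgef28, a nucleotide exchange factor that binds focal adhesion kinase, rose from 17.3 to 26.4 FPKM, and Rasa1 fell from 35.0 to 25.1 FPKM (q = 0.00933), per the authors' deposited table. Arhgap35, also a GTPase-activating protein, was not called, at 35.4 and 30.7 FPKM (q = 0.0911), per the authors' deposited table.

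**Figure D4:**
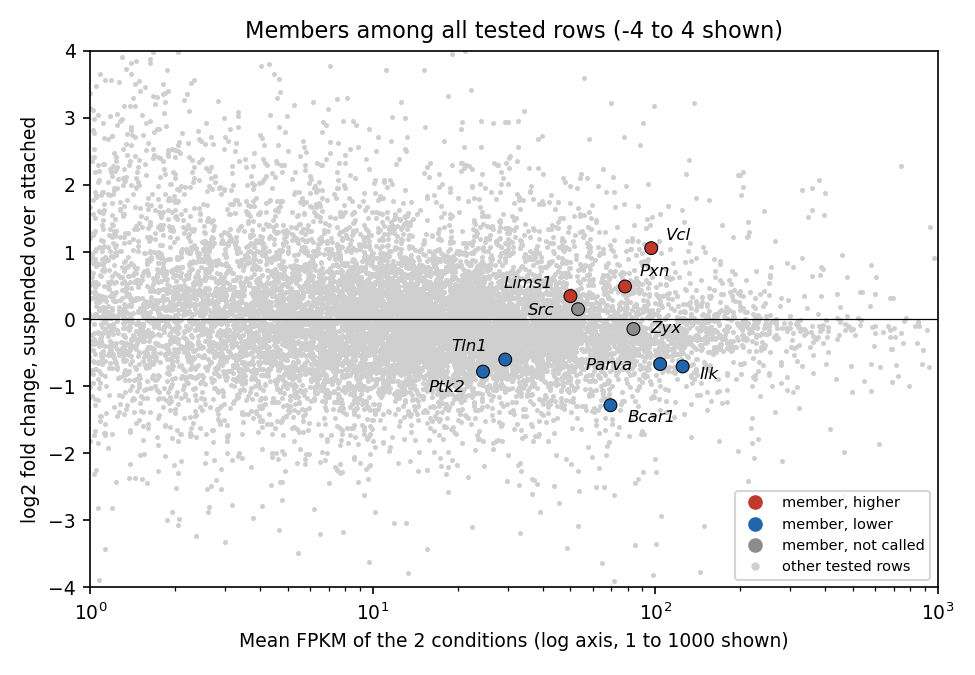
Log2 fold change (suspended over attached) against mean FPKM (log axis) for all tested rows within the axes shown (grey) and the 10 members (coloured by the authors' call). Vcl at 1.06 and Bcar1 at -1.28 lie farthest from 0 among the members, inside the cloud of other rows.

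Set among all rows, the 10 genes were well expressed and their changes were not extreme. The lowest, Ptk2, was at percentile 77.5 of tested rows by attached FPKM and at 66.2 by suspended FPKM. By size of log2 fold change, Bcar1 was at percentile 82.8 of tested rows and Vcl at 77.7, while Zyx and Src were at 16.7. The summed FPKM of the 10 was 759 attached and 671 suspended.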

How the data were processed

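RNA of 3 attached and 3 suspended libraries was sequenced on an Illumina HiSeq instrument after mRNA purification, per the labels' protocols. Per the submitters' processing notes, the build was mm10 and the tools were Cuffdiff, Cufflinks 1.0.3, Bowtie and TopHat. The sources used here give no settings, annotation or strand counting. The authors pooled the libraries into 1 FPKM per condition. Per the file headers, the p-value, q-value, test score and log2 fold change are the authors' own. Recomputed log2 ratios differed from the deposited ones by at most 4e-05, and 4278 tested rows hold the lowest p-value, 5e-05. Deposited positions count from 0 at the start and were converted to count from 1. Of 13580 tested names in the GENCODE M21 annotation, 13572 overlapped the deposited position.

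No test over libraries could be run. Calls are the authors' q below 0.05. The 95% intervals divide the log2 fold change by the normal quantile of p, and the standard error of log2 so implied had a median of 0.13 over 4503 rows of at least 10 FPKM. For the members given an interval, the deposited test score is smaller in size than that quantile, so the interval may be too narrow. Tln1, at the lowest p and without an interval, has a score of -1.84. The members and lists were chosen with earlier results of these data known. Named genes are the 10 members, up to 3 called genes and 1 uncalled gene per role group, and paralogs of at least 1 FPKM. Crk, Csk and the pairs set as ratios were chosen after their values were seen. Of the leukocyte markers, 1 is not reported here. Of the 68 list genes, 2 were matched by older symbols, and 1 stands in a row naming several genes and was left out. Promoter sequences are from RefSeq. The recomputed adjustment was tested on simulated data. The authors' q, which sets the calls given here, was not tested. Alternatives covered the threshold, a 2-fold minimum, the adjustment, a filter on low values, scaling and pseudocounts of 1 and 0.1. The software was Python 3.11.15 with pandas 2.3.3, SciPy 1.17.1, matplotlib 3.10.9 and NumPy 2.4.6.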

Additional observations from a re-analysis of the deposited data

How the results depend on the processing

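With a 2-fold minimum the members called went from 3 to 1 higher and from 5 to 1 lower, and the other plaque genes from 12 to 5 higher and from 26 to 5 lower. The other alternatives left each of these counts within 1.5 times: a q below 0.01, a recomputed Benjamini-Hochberg adjustment, rows of at least 1 FPKM in both conditions (9 of the other plaque genes higher), centring, and, added after seeing the data, rescaling to the same sum without mitochondrial and microRNA rows. All 10 members kept the sign of their log2 fold change under centring and rescaling, with Zyx nearest to 0 at -0.04 when either scaling was used. A pseudocount added to both values cannot change a sign, so the 2 pseudocounts are no check of it. The filter on low values could not drop a member, as all 10 are above 10 FPKM. Centring and rescaling left the authors' q as it was and could change a call only through its sign. No paired analysis was possible because the table holds 1 pooled value per condition, and leaving out each replicate was not run for the same reason. Depth is unknown, so its limits on low genes such as Efs, Elmo1 and Parvb cannot be given.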
